A study of Mus musculus with 16 samples.

Results

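The comparison set hearts of mice overexpressing AKIP1 against hearts of wild-type littermates after ischemia/reperfusion (I/R) injury, using the 4 arrays titled TG_IR and the 4 titled WT_IR of 16 in all. I/R interrupts the blood supply of heart muscle and then restores it. The other 8 arrays came from sham-operated mice, 4 of each genotype, and served as the uninjured reference. All mice were C57BL/6J, each array held RNA of cardiac tissue from 1 mouse, and the labels tell the mice apart by genotype (AKIP1_overexpression or WT-Littermate) and by operation. The age of the mice, the promoter driving the transgene, the time between reperfusion and sampling and the part of the heart taken are not stated in the labels.

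AKIP1 (A kinase interacting protein 1) binds the catalytic subunit of protein kinase A, the kinase that carries much of the beta-adrenergic signal to the calcium-handling and contractile proteins of cardiomyocytes. It is also known as a partner of the p65 subunit of NF-kB, a transcription factor of inflammatory genes. I/R kills cardiomyocytes, draws in neutrophils and macrophages and starts fibroblast activation, so that injured tissue carries a large transcript response of mixed cellular origin. The study asked whether AKIP1 overexpression alters that injury. In bulk tissue, fewer cells of a type and less RNA per cell cannot be told apart.

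Each array gave the intensity of 25697 Illumina bead probes, from 162 to 25240, with array medians of 178.8 to 178.9. The distributions of the arrays had been equalised before deposition, so that every difference is a shift against the other probes of that array. A background level remained in the values, and 65.6% of the probes had a mean no more than 10% above the median, where differences are compressed. The deposited file and the gene table used here do not pair these probes with genes. Probes are therefore given by ID without a gene or a role, and neither Akip1 nor markers of cardiac cell types could be checked.

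The array WT_IR replicate 2, titled SAMPLE 5, stood apart from the other I/R arrays and near the sham arrays. Its label was kept, and the genotype comparisons are given with it and without it. An I/R response score was computed for each array as its mean log2 shift from the sham mean, each probe signed by its averaged I/R effect. It ran over the 5698 probes (22.2% of those tested) past an adjusted p of 0.05 for I/R against sham averaged over both genotypes, of which 2667 were higher and 3031 lower after I/R. These probes were chosen on the same 16 arrays, so that the distance between I/R and sham arrays is a description. WT_IR replicate 2 scored 0.0231, within the range of the 8 sham arrays (−0.038 to 0.0338).

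With all arrays, 0 of 25697 probes (0%) differed between TG_IR and WT_IR in limma's test with Benjamini-Hochberg adjustment at 0.05, and the smallest adjusted p was 0.163. Before adjustment, 1252 probes (4.87%) had a p under 0.05, with 661 higher and 591 lower in transgenic hearts. Without WT_IR replicate 2, 2 probes were called (0.00778%), both higher in transgenic hearts, and 1093 (4.25%) had a p under 0.05 before adjustment. In 2.56% of all probes the 4 TG_IR arrays lay entirely on one side of the 4 WT_IR arrays. Exchanging the labels at random gives such a separation with a probability of 0.0286, which this share did not exceed. With 3 WT_IR arrays, which makes such a separation easier, the share was 5.05%.

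The largest genotype difference after I/R was that of probe ILMN_2729762. Its log2 intensity was 11.21, 11.72, 11.47 and 11.28 on TG_IR replicates 1 to 4. On WT_IR replicates 1, 3 and 4 it was 8.75, 8.18 and 8.34, whereas WT_IR replicate 2 stood at 10.70. All 4 TG_IR arrays thus lay above every WT_IR array, and WT_IR replicate 2 lay closer to the transgenic arrays than to the other wild-type ones. In linear units, that array read 1659, against 290.4 to 430.1 on the other WT_IR arrays and 2367 to 3365 on the TG_IR arrays.

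With all arrays, ILMN_2729762 averaged 11.42 ± 0.23 across the TG_IR hearts and 8.99 ± 1.16 across the WT_IR hearts (SD, n = 4 for both). The log2 difference of 2.43 (SE 0.42, 95% interval 1.52 to 3.33) had an adjusted p of 0.47 in limma's test. Leaving that array out, the wild-type mean was 8.42 ± 0.29 (SD, n = 3), and the difference was 3.00 log2, or 7.98-fold (SE 0.20, adjusted p = 6.17e-05, limma). It was higher in 4 of 4 TG_IR arrays in either setting. With normexp background correction, which removes part of the remaining background, the difference without that array was 11.7-fold.

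The same probe also marked the genotype in uninjured hearts, where 3 of 25697 probes (0.0117%) were called between TG_Sham and WT_Sham. It stood at 12.64 ± 0.37 in TG_Sham and 7.98 ± 0.24 in WT_Sham (SD, n = 4 each). WT_IR replicate 2 therefore lay below the TG_Sham range of 12.09 to 12.89 and above the WT_Sham range of 7.74 to 8.25 as well. Of the other WT_IR arrays, replicate 3 lay within the WT_Sham range and replicates 1 and 4 lay above it. The genotype difference after I/R minus that after sham was −2.23 log2 with all arrays and −1.66 log2 without WT_IR replicate 2. Neither value passed in limma's test of the interaction (SE 0.59 and 0.28, adjusted p = 0.998 and 0.509).

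Probe ILMN_2675072 was the other call without WT_IR replicate 2, and was singled out after its values were seen. It read 8.68, 8.61, 8.63 and 8.67 log2 on TG_IR replicates 1 to 4 and 8.45, 8.44 and 8.46 on WT_IR replicates 1, 3 and 4. WT_IR replicate 2 stood at 8.71, above all TG_IR arrays, so that the groups overlapped once it was included. The difference was 0.19 log2, or 1.14-fold (SE 0.02, adjusted p = 0.0364, limma), without that array and 0.13 log2 (SE 0.05, adjusted p = 0.966) with it.

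In sham hearts, ILMN_2675072 had a log2 difference between genotypes of 0.01 (SE 0.05). TG_IR and TG_Sham means were 8.65 ± 0.03 and 8.60 ± 0.03, and the WT_Sham mean was 8.59 ± 0.04 (SD, n = 4 each). The 3 WT_IR arrays thus lay below both sham groups, while the TG_IR arrays lay near them. With normexp background correction the difference without WT_IR replicate 2 was larger, at 0.28 log2 or 1.21-fold, but it was not called (adjusted p = 0.136, limma).

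On the lower side, ILMN_1215469 was followed because it had the largest difference among the probes called as lower in transgenic hearts after sham. After I/R it read 11.65, 11.48, 11.72 and 11.86 log2 on TG_IR replicates 1 to 4 and 12.05, 12.25, 12.27 and 12.39 on WT_IR replicates 1 to 4. The groups did not overlap, and WT_IR replicate 2 lay among the other wild-type arrays. The log2 difference was −0.56 (SE 0.13, 95% interval −0.84 to −0.29, adjusted p = 0.966, limma) over all arrays. It was −0.56 (SE 0.14, adjusted p = 0.999, limma) when WT_IR replicate 2 was left out. In sham hearts it was −1.18 (SE 0.13, adjusted p = 0.00414, limma), with the TG_Sham arrays between 10.69 and 11.41 and the WT_Sham arrays between 12.26 and 12.31. The TG_IR arrays stood between those ranges.

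Probe ILMN_2735877 had the smallest p on the lower side and was chosen for it on these same arrays. It read 8.24, 8.20, 8.16 and 8.17 log2 on TG_IR replicates 1 to 4 and 8.32, 8.44, 8.37 and 8.40 on WT_IR replicates 1 to 4, again with no overlap. The log2 difference of −0.19 (SE 0.03) had an adjusted p of 0.163 with all arrays and, at −0.17 (SE 0.03), 0.168 without WT_IR replicate 2 (limma). In sham hearts the difference was −0.02 (SE 0.03), with means of 8.26 ± 0.03 in TG_Sham and 8.28 ± 0.03 in WT_Sham (SD, n = 4 each).

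**Figure D1:**
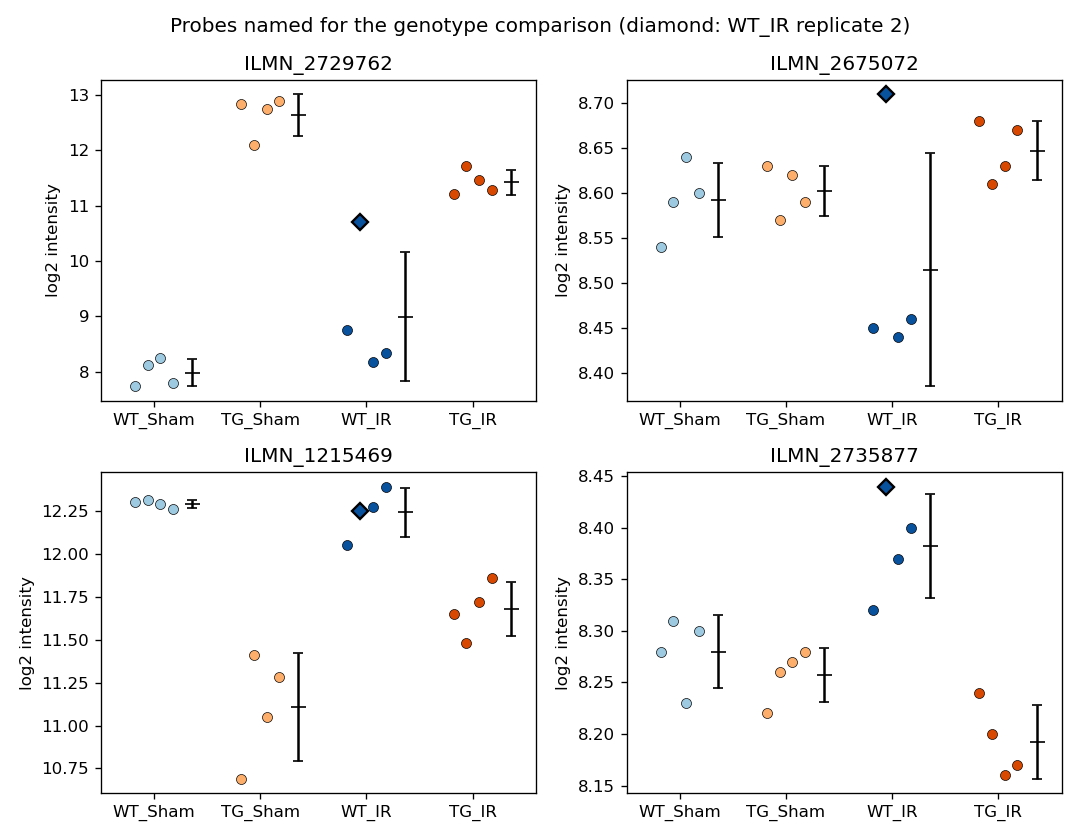
Log2 intensity of the 4 probes named for the genotype comparison, by group, with 1 point per array and the mean and SD of each group beside it (n = 4). On ILMN_2729762 the diamond for WT_IR replicate 2, at 10.70, lies between the other WT_IR arrays and the TG_IR arrays, and on ILMN_2675072, at 8.71, it lies above all TG_IR arrays.

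These probes differed in the same direction on both slides, which is given as a description. For ILMN_2729762, ILMN_1215469 and ILMN_2735877, whose groups did not overlap over all arrays, the shared direction follows from that. Slide 1 carried WT_IR replicates 1 and 2 with TG_IR replicates 1 and 2, and slide 2 carried the other I/R arrays. The TG_IR minus WT_IR difference of ILMN_2729762 was 1.74 log2 on slide 1 and 3.12 log2 on slide 2. For ILMN_1215469 the differences were −0.58 and −0.54 log2, and for ILMN_2735877 they were −0.16 and −0.22 log2. ILMN_2675072 differed by 0.06 and 0.19 log2.

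Beyond these probes, the arrays bounded the size of the genotype difference in injured hearts for most probes. The 72 probes whose 95% interval was not within 2-fold with all arrays were all brighter than the median. With all arrays, the 95% interval of limma extended a median of 0.0425 log2 to either side of the estimate over all probes, and 0.0942 log2 over the probes brighter than the median. These intervals are not adjusted for the number of probes, and they rest on a spread per probe shared by the sham and I/R arrays. For 25625 probes (99.7%) the whole interval lay within 2-fold in either direction, and for 98.3% it lay within 1.5-fold. These shares were 99.9% and 99.2% without WT_IR replicate 2. With normexp background correction they were 99.4% and 96.4% for all arrays, and the interval then extended a median of 0.119 log2 to either side over all probes and 0.171 log2 over the brighter ones.

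The bound was tightest where the signal was dim and compressed, and it loosened with intensity. Of 5451 probes with a mean intensity from 200 to 400, 98.5% had an interval within 1.5-fold. This share was 89.5% for 2406 probes from 400 to 1600 and 83.3% for 622 probes above 1600. Leaving out WT_IR replicate 2 gave 99.2%, 94.6% and 93.2%. The intervals of the brightest class extended a median of 0.233 log2 to either side with all arrays and 0.197 log2 without that array.

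The bound was weakest for the transcripts that responded most to injury. The score held 95 probes with an averaged I/R effect over 1 log2, 86 of them higher and 9 lower after I/R. For these, the interval of the genotype difference extended a median of 0.683 log2 to either side with all arrays. It lay within 2-fold for 52 of the 95 and within 1.5-fold for 4. When WT_IR replicate 2 was left out, the median was 0.428 log2, and the counts were 88 and 45. With normexp background correction, 28 of the 95 lay within 2-fold and 1 within 1.5-fold with all arrays, and 82 and 36 without that array. The shared spread matters here. Over the 95 probes, the median SD within groups was 0.608 log2 for the I/R arrays and 0.214 log2 for the sham arrays. Without WT_IR replicate 2, the I/R value was 0.302 log2. Sham arrays thus narrowed these intervals, and intervals from the I/R arrays alone were not computed for the 95. A single such probe would have needed a difference of 2.51 log2 (median) to be called by itself over 25697 probes with all arrays and of 1.62 log2 without that array. Over the probes brighter than the median, the corresponding differences were 0.346 and 0.348 log2, or 0.601 and 0.592 log2 with normexp.

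Few probes had a large estimated genotype difference, and most of these turned on WT_IR replicate 2. With all arrays, 20 probes differed by more than 1.5-fold between TG_IR and WT_IR, 14 higher and 6 lower in transgenic hearts, and 4 of them by more than 2-fold. On 18 of the 20, WT_IR replicate 2 was the highest or the lowest of the 8 I/R arrays. It was so on 41.4% of all probes and on 76.4% of the probes of the I/R response score. Of the 20, 13 (65%) belonged to the I/R response score, beside 22.2% of all probes. Without that array, 9 probes exceeded 1.5-fold, 2 higher and 7 lower, and 5 of these were among the 20. Only ILMN_2729762 then exceeded 2-fold. With normexp background correction, 44 probes exceeded 1.5-fold with all arrays, 30 higher and 14 lower, and 19 did without WT_IR replicate 2, 6 higher and 13 lower. Under normexp 6 and 2 probes, respectively, exceeded 2-fold. With no background correction, the next difference on the higher side without that array was 0.64 log2, and the largest on the lower side was −0.84 log2. In sham hearts, 19 probes exceeded 1.5-fold between genotypes. For I/R against sham averaged over both genotypes, 482 did.

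**Figure D2:**
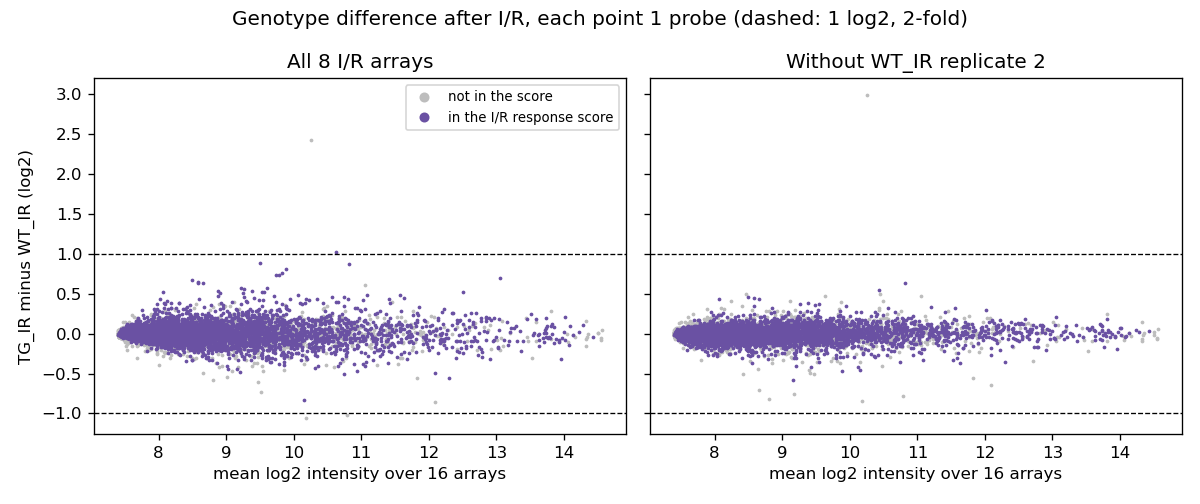
TG_IR minus WT_IR difference of each of 25697 probes (log2) against its mean log2 intensity over 16 arrays, with all 8 I/R arrays on the left and without WT_IR replicate 2 on the right. Probes of the I/R response score are purple, and dashed lines mark 2-fold. Only ILMN_2729762, at 3.00 log2, lies outside them on the right, where no background correction was applied.

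The strength of the I/R response varied between mice of the same genotype. The score was 0.338, 0.304, 0.298 and 0.252 on TG_IR replicates 1 to 4. It was 0.366, 0.0231, 0.349 and 0.219 on WT_IR replicates 1 to 4. Both the strongest and the weakest responses were thus those of wild-type hearts, and the TG_IR arrays lay between them. TG_IR hearts averaged 0.298 ± 0.036 and WT_IR hearts 0.239 ± 0.159 (SD, n = 4 for both).

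The genotype difference of the score, 0.0586 or 24.5% of the wild-type mean, did not exceed the variation from mouse to mouse (exact permutation test, two-sided p = 0.629 over 70 assignments, smallest possible 0.0286). Its 95% interval by permutation ran from −0.114 to 0.315. The sign turned when WT_IR replicate 2 was left out and the same probes were kept. The wild-type mean was then 0.311 ± 0.081 (SD, n = 3), and the difference was −0.0135, or −4.32% of it (two-sided exact permutation p = 0.771 over 35 assignments). The interval of −0.121 to 0.120 spans −39% to 38.4% of the wild-type mean. With all arrays, the interval spans −47.8% to 131% of the wild-type mean. A change of the injury response within these bounds was thus not rejected by the permutation test. The size of change that would have been detected was not computed. Taken slide by slide, the difference was 0.126 on slide 1, the slide of WT_IR replicate 2, and −0.00917 on slide 2.

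Probes that rose and probes that fell after I/R gave the same order of arrays, apart from TG_IR replicates 2 and 3. The part of the score from raised probes was 0.381, 0.325, 0.340 and 0.283 on TG_IR replicates 1 to 4, and 0.408, 0.0141, 0.391 and 0.245 on WT_IR replicates 1 to 4. The part from lowered probes was 0.301, 0.286, 0.261 and 0.224 in TG_IR and 0.330, 0.031, 0.313 and 0.195 in WT_IR. In both parts, WT_IR replicates 1 and 3 were the strongest responders and WT_IR replicate 4 the weakest after replicate 2. The TG_IR minus WT_IR difference with all arrays was 0.0676 for raised probes and 0.0507 for lowered ones (two-sided exact permutation p = 0.629 for both, n = 4 and 4). Without WT_IR replicate 2 the sign turned, and it was −0.0159 for raised probes and −0.0114 for lowered ones (two-sided exact permutation p = 0.771 and 0.80, n = 4 and 3).

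Over the 95 strongest probes, the mean shift from sham in the direction of the response was 1.75, 1.53, 1.68 and 1.48 log2 on TG_IR replicates 1 to 4. It was 1.92, 0.084, 1.84 and 1.29 log2 on WT_IR replicates 1 to 4. Sham arrays lay between −0.184 and 0.206 log2. With all arrays, TG_IR averaged 1.61 ± 0.12 and WT_IR averaged 1.28 ± 0.85 (SD, n = 4 for both), and the difference was 0.328 log2, with an exact permutation interval of −0.434 to 1.66 (two-sided exact permutation p = 0.629). Leaving out WT_IR replicate 2, the means were 1.61 ± 0.12 in TG_IR (n = 4) and 1.68 ± 0.34 in WT_IR (SD, n = 3). The difference, now −0.0712 log2, had an exact permutation interval of −0.434 to 0.459 (two-sided exact permutation p = 0.743).

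**Figure D3:**
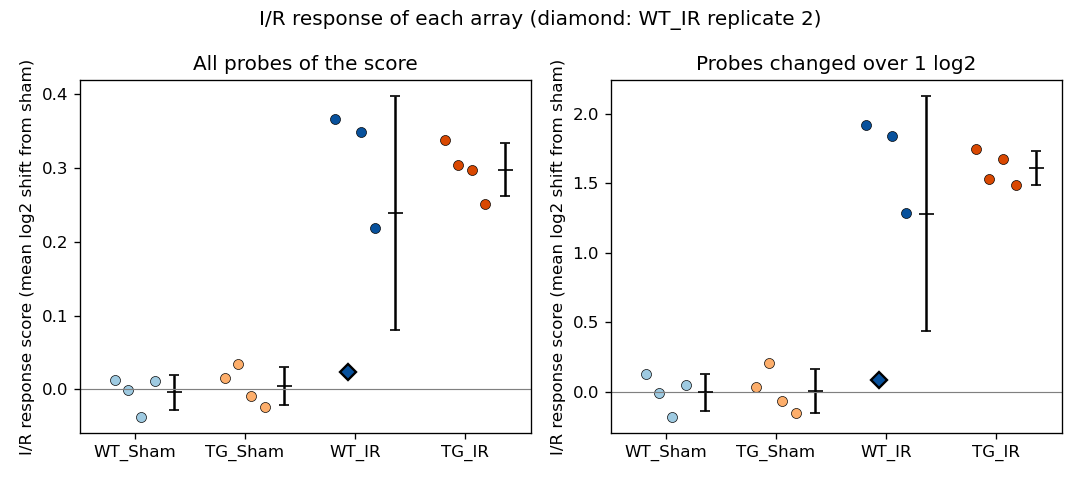
I/R response score of each array (mean log2 shift from the sham mean), by group, over the 5698 probes of the score on the left and over its 95 probes with an effect above 1 log2 on the right. Points are arrays, with the mean and SD of each group beside them (n = 4); WT_IR replicate 2, the diamond at 0.0231 and 0.084, lies among the sham arrays, and the TG_IR arrays lie within the WT_IR range.

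Single probes with the largest averaged I/R effects varied in the order of the arrays, and WT_IR replicate 2 had the weakest response of the I/R arrays on all 4. ILMN_2710905 read 12.93, 11.73, 12.93 and 12.98 log2 on TG_IR replicates 1 to 4 and 12.68, 8.93, 13.27 and 11.59 on WT_IR replicates 1 to 4. The WT_Sham arrays lay between 8.68 and 9.50 and the TG_Sham arrays between 8.70 and 9.62, so that WT_IR replicate 2 lay within both sham ranges. Its genotype difference after I/R was 1.03 log2 (95% interval −0.47 to 2.52) with all arrays and 0.13 log2 (−0.73 to 0.99) without that array.

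ILMN_2952275 read 11.62, 11.02, 11.65 and 11.71 log2 on TG_IR replicates 1 to 4 and 12.11, 8.08, 12.39 and 10.48 on WT_IR replicates 1 to 4. WT_IR replicates 1 and 3 lay above every TG_IR array, and replicate 4 lay below them. The genotype difference was 0.74 log2 (95% interval −0.78 to 2.26) with all arrays and −0.16 log2 (−1.08 to 0.76) without WT_IR replicate 2.

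Among probes lowered by I/R, ILMN_1241151 read 9.03, 8.10, 9.02 and 9.32 log2 on TG_IR replicates 1 to 4 and 8.26, 9.61, 8.59 and 8.96 on WT_IR replicates 1 to 4. TG_Sham arrays read 9.25 and 9.13 on slide 1 and 10.43 and 10.38 on slide 2, so that they overlapped with TG_IR. WT_Sham arrays lay between 10.41 and 10.66. The genotype difference after I/R was 0.01 log2 (95% interval −0.75 to 0.77) with all arrays and 0.26 log2 (−0.48 to 1.01) without WT_IR replicate 2. ILMN_2616226 read 9.60, 9.62, 9.61 and 9.60 log2 in TG_IR and 9.72, 10.74, 8.97 and 10.12 in WT_IR. The TG_IR arrays were nearly identical on that probe, and the WT_IR arrays lay on both sides of them. Its difference was −0.28 log2 (95% interval −1.02 to 0.46) with all arrays and 0.005 log2 (−0.69 to 0.70) without that array. The intervals of these probes share the spread of the sham arrays. Fitted to the I/R arrays only, the SE was 0.91 log2 for ILMN_2710905 and 0.906 log2 for ILMN_2952275, against 0.695 and 0.707 log2. For ILMN_1241151 and ILMN_2616226 it was 0.354 and 0.335 log2, against 0.353 and 0.345 log2.

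**Figure D4:**
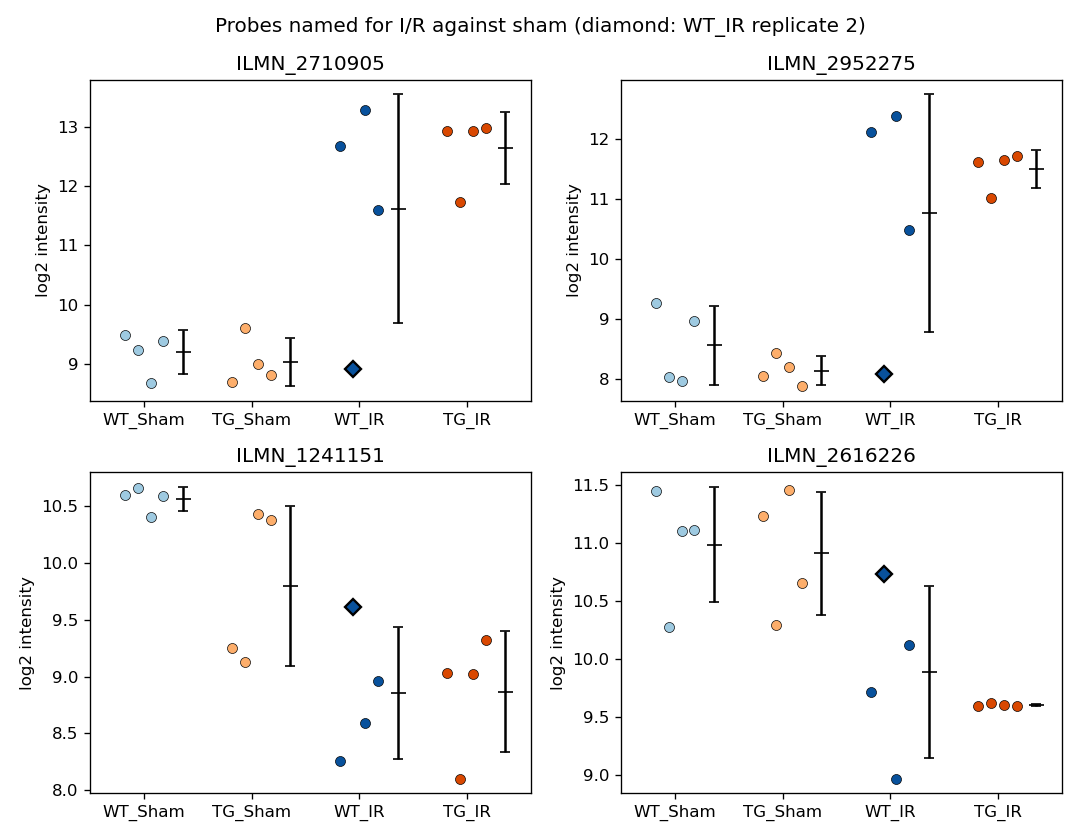
Log2 intensity of the 4 probes with the largest averaged I/R effect in each direction, by group, with 1 point per array and the mean and SD of each group beside it (n = 4). WT_IR replicate 2, the diamond, lies within both sham ranges of ILMN_2710905 (8.93), ILMN_2952275 (8.08) and ILMN_2616226 (10.74). On ILMN_1241151 (9.61) it lies within the TG_Sham range and below the WT_Sham range. The ranges of the TG_IR and the other WT_IR arrays overlap in all 4 panels.

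Arrays of one genotype differed from each other about as much as arrays of different genotypes. Over the 95 strongest probes, the root mean square difference between 2 TG_IR arrays was 0.273 to 0.569 log2 (median 0.481, 6 pairs). Between 2 WT_IR arrays other than replicate 2 it was 0.414 to 0.689 log2 (median 0.681, 3 pairs). Between a TG_IR and such a WT_IR array it was 0.273 to 0.677 log2 (median 0.492, 12 pairs). Pairs with WT_IR replicate 2 differed by 1.30 to 1.94 log2, whichever genotype the other array had. Pairs share arrays and are given as a description.

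Over all probes, the sum of squares among the 8 I/R arrays lay mostly along the strength of the I/R response. The score accounted for 61.2% of it, genotype for 12.1% and slide for 6.37%, each taken alone, where an even share of 1 degree of freedom would be 14.3%. Without WT_IR replicate 2, the score accounted for 31.4%, genotype for 14.4% and slide for 16.6%, with an even share of 16.7%. Genotype thus took up no more than an even share of the sum of squares over all probes in either setting. Over the probes outside the score, it accounted for 16.3% with all arrays and 18.7% without that array. Both lay above the even shares of 14.3% and 16.7%. The score was built from these arrays, so that its share is a description.

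**Figure D5:**
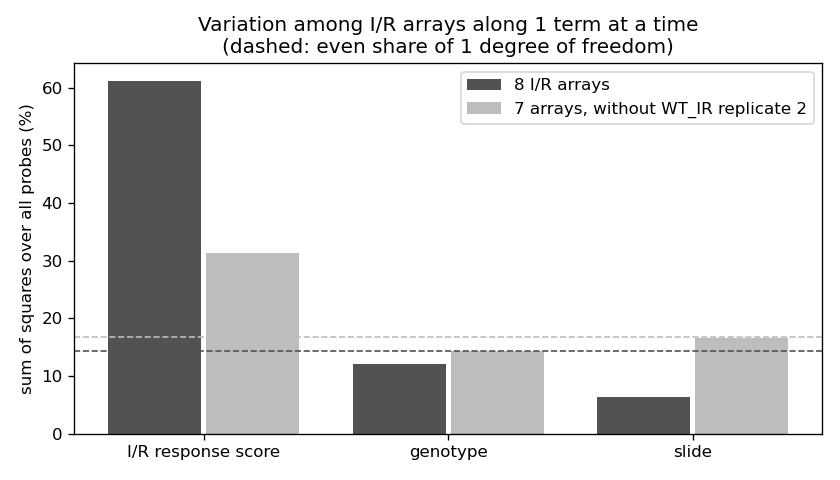
Share of the sum of squares over 25697 probes among I/R arrays (%) that lies along the I/R response score, genotype or slide, each taken alone, for 8 arrays (dark) and for 7 without WT_IR replicate 2 (light). Dashed lines mark the even share of 1 degree of freedom, 14.3% and 16.7%, and the genotype bars of 12.1% and 14.4% lie below them.

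Within-group SDs were higher over the strongest I/R probes than over bright probes outside the score, in sham as well as I/R groups. These sets of probes were not matched for intensity, and SDs are compressed near background. The SD within a group, as the median over the 95 strongest probes, was 0.258 log2 in TG_IR, 0.822 in WT_IR and 0.369 in WT_IR without replicate 2. It was 0.155 in TG_Sham and 0.216 in WT_Sham. Over 7373 probes brighter than the median and outside the score, it was 0.0411 in TG_IR, 0.0457 in WT_IR, 0.0425 in TG_Sham and 0.0427 in WT_Sham. The median absolute genotype difference after I/R was 0.295 log2 over the 95 probes and 0.134 log2 without WT_IR replicate 2, beside 0.0161 and 0.0163 log2 over all probes. In sham hearts it was 0.0908 log2 over the 95 probes and 0.0166 log2 over all probes.

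When the score entered limma's fit as a covariate, ILMN_2729762 was the single probe called between TG_IR and WT_IR with all arrays (log2 difference 2.79, SE 0.26, adjusted p = 0.00224, higher in 4 of 4 arrays). The score was built from these arrays, and its SD in WT_IR was 0.159 with WT_IR replicate 2 and 0.081 without it. The covariate thus largely follows that array, and this call is not separate support beside the fit without it. No probe was called for a genotype difference that differed between I/R and sham. The interaction gave 0 of 25697 probes (0%) in limma's test with all arrays and 0 (0%) without WT_IR replicate 2, with 1101 (4.28%) and 1094 (4.26%) at a p under 0.05 before adjustment. The smallest adjusted p was 0.888 and 0.509.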

How the data were processed

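The authors deposited linear probe intensities of Illumina bead arrays for 16 hearts. Per the labels' protocols, TriReagent was used for extraction and the Illumina TotalPrep kit for biotin-labelled cRNA. How the authors corrected and normalized the values, and with which software, is not stated, and no detection p-values were used. The deposited intensities had been equalised between arrays, differing at a given rank by at most 7.71% (median 0.109%).

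Intensities were log2 transformed without further correction or normalization. In R 4.3.3, limma 3.58.1 (lmFit, contrasts.fit, eBayes) fitted the 4 group means to the 16 arrays, and again without WT_IR replicate 2. Benjamini-Hochberg adjustment ran over 25697 probes, with a threshold of 0.05. SE is the moderated standard error. The I/R response score was compared by exact permutation over arrays, and its intervals hold the shifts not rejected at 0.05. Replicates were numbered in accession order within a group. The number of arrays limits the precision.

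In simulated data with 200 of 25697 probes changed between TG_IR and WT_IR, 90% of changes of 0.5 log2, 99% of 1 log2 and 100% of 2 log2 were recovered, with 10 false calls. The changed probes were drawn at random from all probes, dim ones included, and the noise was independent between arrays and between probes. Each change was added in full on the deposited scale, also to dim probes, whose real differences are compressed. Sham and I/R groups were given the same SD for a probe. These shares thus do not carry over to dim probes or to the probes that varied most. With all arrays, a single probe with a mean intensity above 1600 needed 0.858 log2 (median) to be called by itself. For the 95 strongest I/R probes this was 2.51 log2.

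The comparison, the probes followed and the tests were chosen with earlier results of these data known. Since 0 gene names could be assigned, at most 2 probes per direction are named. For genotype these were the probe with the largest difference among those called after sham and, next to it, the probe with the smallest p after I/R without WT_IR replicate 2. For I/R they were those with the largest averaged effect. Gene lists, marker lists and 1 value per gene could not be computed. Alternatives were normexp (offset 50), cyclic loess, a filter on dim probes, only the I/R arrays, slide as a block or alone, array weights, a trend in the spread, the score as a covariate, and leaving out each array.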

Additional observations from a re-analysis of the deposited data

Results flagged for a closer look

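For the I/R response score and each of 8 named probes, every group of 4 was checked for 1 array lying well away from its 3 fellows. In 36 checks 3 such arrays were found, where chance gives about 1.8 for probes not chosen on these data. The named probes were chosen on these arrays, ILMN_2675072 by its p without WT_IR replicate 2. The 2 numbers are therefore set side by side as a description. ILMN_2675072 stood at 8.71 log2 on WT_IR replicate 2, against 8.44 to 8.46 on the other WT_IR arrays. ILMN_2710905 stood at 11.73 log2 on TG_IR replicate 2, against 12.93 to 12.98 on the other TG_IR arrays. ILMN_2952275 stood at 11.02 log2 on the same array, against 11.62 to 11.71. The I/R response score of TG_IR replicate 2, 0.304, lay between those of the other TG_IR arrays. The score of WT_IR replicate 2 was not among the values found, because WT_IR replicate 4 also lay below replicates 1 and 3.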

How the results depend on the processing

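With all arrays, the count of probes called between TG_IR and WT_IR was 1 with array weights (0.38 for WT_IR replicate 2), with the score as a covariate and on slide 2 alone, each time ILMN_2729762, and 0 in limma's test on slide 1 alone (1231 at a p under 0.05 before adjustment). With WT_IR replicate 2 left out it was 2 when slide was a block and 1 under normexp. Leaving out each array gave 0 to 2, the call without WT_IR replicate 1 being ILMN_2735877 (adjusted p = 0.0457). Without WT_IR replicate 2, it was 1 with normexp, with only brighter probes, with only I/R arrays, with a trend in the spread and with the score as a covariate, and 1 to 3 when another array was left out. Over these 23 settings without WT_IR replicate 2, ILMN_2729762 was called in 23 and ILMN_2675072 in 7. The interaction gave 0 in each alternative it was run under. After sham, 0 probes were called on slide 1 alone, 1 on slide 2 alone, 5 with slide as a block once WT_IR replicate 2 was left out, 6 with normexp likewise, and 2 to 5 when 1 array was left out. The genotype difference of the score was −0.0143 when WT_IR replicate 2 was left out and probes were chosen anew, and reached 0.109 when another array was, with exact permutation p between 0.343 and 0.857. The share of probes with an interval within 1 log2 of 0 was 99.38% with normexp, 99.45% for brighter probes and 99.46% with only the I/R arrays, against 99.72%, and 99.52% to 99.89% when 1 array was left out. The 4 probes named for genotype and ILMN_2710905 kept their direction in each of 28 alternatives. The other 3 probes named for I/R, whose genotype differences were never called, did not. ILMN_2952275 ran from −0.16 to 1.28 log2 when 1 array was left out, and with WT_IR replicate 2 left out it was −0.18 under a slide block and −0.16 under normexp. ILMN_2616226 ran from −0.59 to 0.0051, and was 0.0629 on slide 2 alone and, once that array was dropped, 0.0242 under a slide block and 0.0236 under normexp. ILMN_1241151 ran from −0.19 to 0.27, and was −0.37 on slide 1 alone. Chosen after seeing the data were the score over the 95 strongest probes and, for the fit lacking WT_IR replicate 2, all alternatives but normexp and the slide block. The cause of the other shifts was not tested. No paired analysis was possible because each mouse has its own number in the titles, with no pairs between groups. Gene-level summaries and gene lists were not run, since no probe has a gene name here. Dim probes were little tested.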
